A study of Mus musculus with 7 samples.

Results

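The genes described here encode plasma proteins and enzymes that are made mainly by the liver. The set holds 34 genes, and a gene was represented by the probe set with the highest mean over the 7 arrays among those that the platform annotation assigns to that gene only. Of the 34 genes, 33 had such a probe set, out of 18193 genes measured on the array. The exception was Trf (transferrin, the iron carrier of plasma), whose 1 probe set is annotated to a second gene as well and which therefore has no value here. The set was compared between mouse bladder at 2 ages and whole newborn mice, and the genes that bladder itself expresses were named.

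The 3 groups of RNA were hybridized to 1-colour Affymetrix mouse arrays after 2 rounds of amplification, 1 sample per array. The first group was 3 adult bladders (Theiler stage 28) and the second was 3 bladders of postnatal day 1 (P1, Theiler stage 27). All 6 bladders came from male FVB/N mice with the SMGA/EGFP transgene, a fluorescent reporter of smooth muscle gamma-actin, were taken whole by gross dissection and were not pooled. The third group was 1 array of whole wild-type FVB/N newborns of P1, a pool of 4 males and 4 females that the submitters describe as a universal standard. The title of that sample speaks of bladders, but its source and protocol say that entire animals were used, which is how it is treated here. The whole newborn pool thus differed from the bladders in genotype, sex and pooling as well as in tissue, and from the adult bladders also in age. These cannot be told apart. Storage differed too, with adult bladders held in liquid nitrogen and P1 bladders in a freezer, and its part cannot be told apart from that of stage. Replicates are numbered in the order of their records, and since no label ties them to separate litters or days, p-values measure only the spread between these samples, which may be partly technical.

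Hepatocytes secrete most of the proteins of blood plasma, among them albumin, the apolipoproteins, the carriers of hormones, haem and haemoglobin, the clotting proteins and their inhibitors. They also hold the urea cycle and much of the metabolism of amino acids, steroids and drugs. In the newborn mouse the liver is large, still makes blood cells, and expresses alpha-fetoprotein, the albumin relative of fetal life. The yolk sac, intestine, kidney, brain and fat express single genes of this kind. Bladder has no hepatocytes, and its wall is made of urothelium, connective tissue and smooth muscle.

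Promoters of 5 of the genes are shown because they stand for the patterns described below: Alb (albumin) and Afp (alpha-fetoprotein), the main plasma proteins of adult and fetal life, Rbp4 (retinol-binding protein 4) and Itih2 (a heavy chain of inter-alpha-inhibitor), which bladder expressed, and Fgb (the fibrinogen beta chain), which was below the array median in all 6 bladders. Each sequence is from RefSeq (build GRCm38.p6), runs 5′ to 3′ on the gene's strand and covers 250 bases before the transcription start and 50 from it on. Capitals mark GTTAAT, part of the recognition sequence of the hepatocyte factor HNF1, or TGTTTNC, a core recognised by forkhead factors, on either strand.
Alb, chr5:90460620-90460919, plus strand: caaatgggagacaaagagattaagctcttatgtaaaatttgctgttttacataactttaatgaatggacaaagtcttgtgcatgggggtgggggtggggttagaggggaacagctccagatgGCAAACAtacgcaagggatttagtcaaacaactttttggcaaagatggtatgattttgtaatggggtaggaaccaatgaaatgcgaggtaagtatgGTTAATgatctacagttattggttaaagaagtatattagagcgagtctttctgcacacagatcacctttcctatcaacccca
Afp, chr5:90490464-90490763, plus strand: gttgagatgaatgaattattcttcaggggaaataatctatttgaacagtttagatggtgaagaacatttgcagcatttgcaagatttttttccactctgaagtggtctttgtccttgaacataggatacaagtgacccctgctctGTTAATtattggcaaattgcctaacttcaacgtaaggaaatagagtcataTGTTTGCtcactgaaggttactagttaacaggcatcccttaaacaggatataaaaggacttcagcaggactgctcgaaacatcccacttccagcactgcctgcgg
Fgb, chr3:83049814-83050113, minus strand: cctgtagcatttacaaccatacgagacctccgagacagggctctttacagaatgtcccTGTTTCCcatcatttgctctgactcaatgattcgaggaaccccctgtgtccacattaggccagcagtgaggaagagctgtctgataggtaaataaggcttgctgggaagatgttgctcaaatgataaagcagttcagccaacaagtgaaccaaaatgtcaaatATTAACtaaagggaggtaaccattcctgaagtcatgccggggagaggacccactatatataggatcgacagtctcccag
Rbp4, chr19:38125272-38125571, minus strand: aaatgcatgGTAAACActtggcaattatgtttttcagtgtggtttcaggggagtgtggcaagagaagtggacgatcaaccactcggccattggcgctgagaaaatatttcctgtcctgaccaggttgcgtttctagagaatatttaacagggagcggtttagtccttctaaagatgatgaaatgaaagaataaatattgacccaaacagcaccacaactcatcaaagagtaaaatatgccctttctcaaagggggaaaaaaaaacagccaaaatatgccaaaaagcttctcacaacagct
Itih2, chr2:10130634-10130933, minus strand: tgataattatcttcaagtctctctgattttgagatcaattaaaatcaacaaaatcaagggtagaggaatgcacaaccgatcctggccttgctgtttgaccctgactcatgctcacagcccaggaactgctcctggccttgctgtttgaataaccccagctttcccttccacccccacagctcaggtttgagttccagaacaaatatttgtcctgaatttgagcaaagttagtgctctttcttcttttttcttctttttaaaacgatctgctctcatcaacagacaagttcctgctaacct
In Alb the HNF1 letters begin 32 bases before the start and the forkhead letters 128 bases before it. In Afp they begin 105 and 55 bases before the start, and in Fgb 29 and 192 bases before it. The Rbp4 promoter holds only the forkhead letters, 241 bases before the start, and the Itih2 promoter holds neither within this window. RefSeq promoters were at hand for 26 of the 33 measured genes. The HNF1 letters were found in 9 of the 26 (34.6%), namely Afp, Alb, F2, Fabp1, Fga, Fgb, Itih1, Pzp and Vtn, against 8.24% of all 27025 genes with a promoter. The forkhead letters were found in 14 of the 26 (53.8%), against 22.8% of all genes. No 2 matches of the different motifs overlapped in these promoters, and a match is a description of the letters, not of binding.

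Median intensities were 226 to 312 on the adult bladder arrays, 209 to 290 on the P1 bladder arrays and 434 on the whole newborn array. Detection calls were not used here, and a gene was called expressed in bladder where its probe set lay above the median of its array in all 3 arrays of a stage. All 10 urothelium markers lay above the median on every bladder array, and their summed intensity was 117800 to 134000 in adult bladders and 106700 to 137100 in P1 bladders, against 20370 in whole newborn. Of 11 photoreceptor genes, which bladder should lack, 0 to 2 lay above the median on a bladder array. By the rule of all 3 arrays, 1 of these 11 counted as expressed in adult bladder and 0 in P1 bladder. P1 replicate 3 stood apart from the other bladders for the liver genes, as described below, so results are also given without it. In these bulk samples fewer cells of a type and less RNA per cell cannot be told apart.

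In both stages nearly the whole set was far lower in bladder than in whole newborn. In adult bladder 32 of 33 genes were lower than in whole newborn at an adjusted p under 0.05 (limma, Benjamini-Hochberg over all probe sets), and 0 were higher, also at an unadjusted p under 0.05. Over all genes measured, 7.39% were called lower and 3.86% higher in that comparison. In P1 bladder 32 of 33 were likewise lower and 0 higher by either measure, against 5.47% lower and 2.15% higher over all genes. The median difference of the 33 genes was -7.32 in adult bladder and -7.14 in P1 bladder, as log2(intensity + 49) of bladder minus whole newborn. Over all genes the median was -0.15 in adult bladder and -0.09 in P1 bladder. Without P1 replicate 3 the P1 count was again 32 and the median -7.17. The 2 comparisons share the whole newborn array, and because that group has 1 array its spread was taken from the bladders. The 1 gene called in neither was Ass1, described with the enzymes below.

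**Figure D1:**
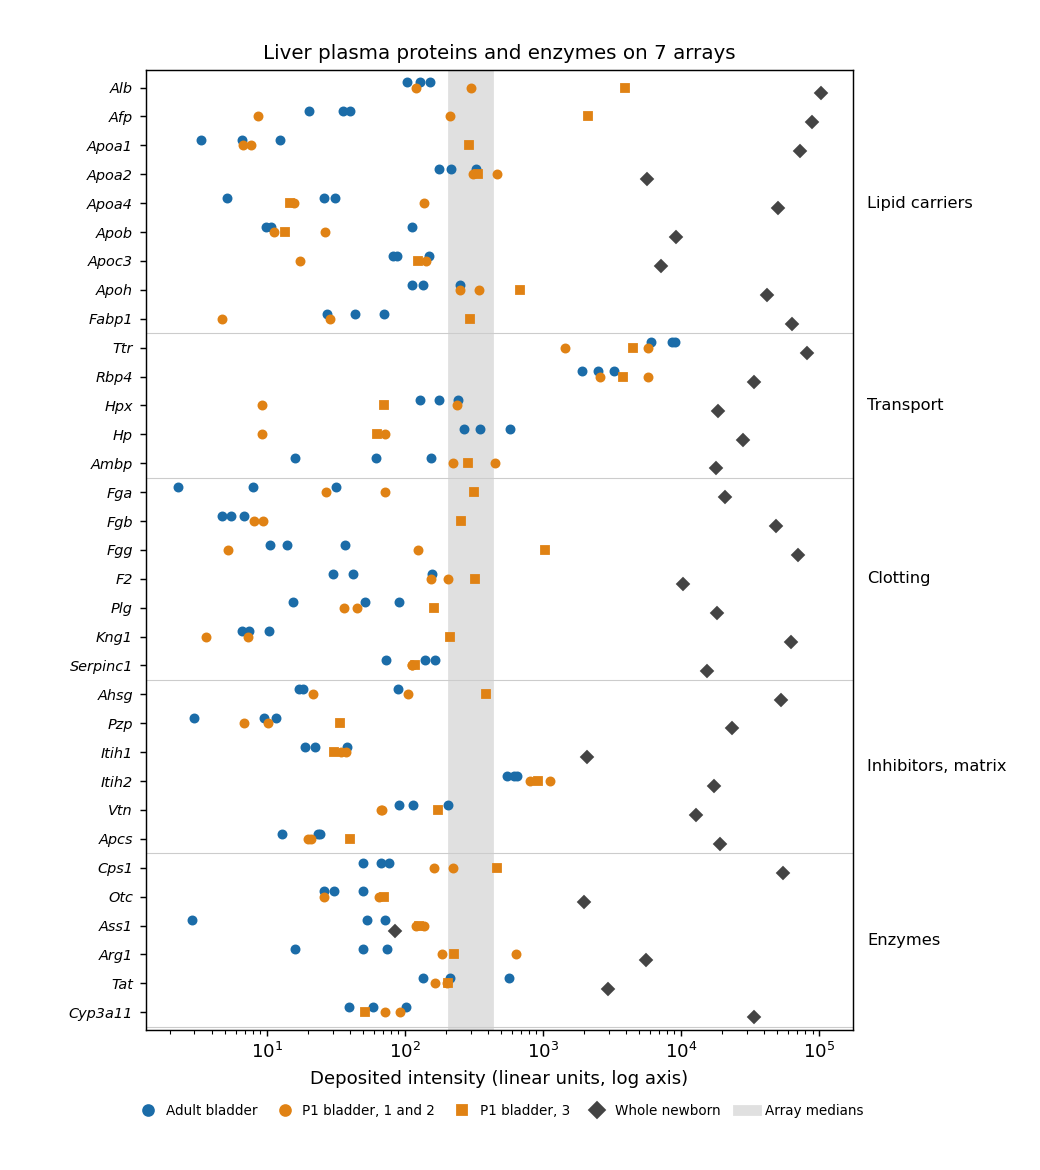
Deposited intensity (x axis, linear units on a log axis) of each measured gene (rows, grouped by role) on every array, with adult bladders in blue, P1 bladders in orange (replicate 3 as squares) and whole newborn as black diamonds. The grey band spans the 7 array medians, 209 to 434; the whole newborn value lies to the right of all 6 bladders for every gene except Ass1.

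**Figure D2:**
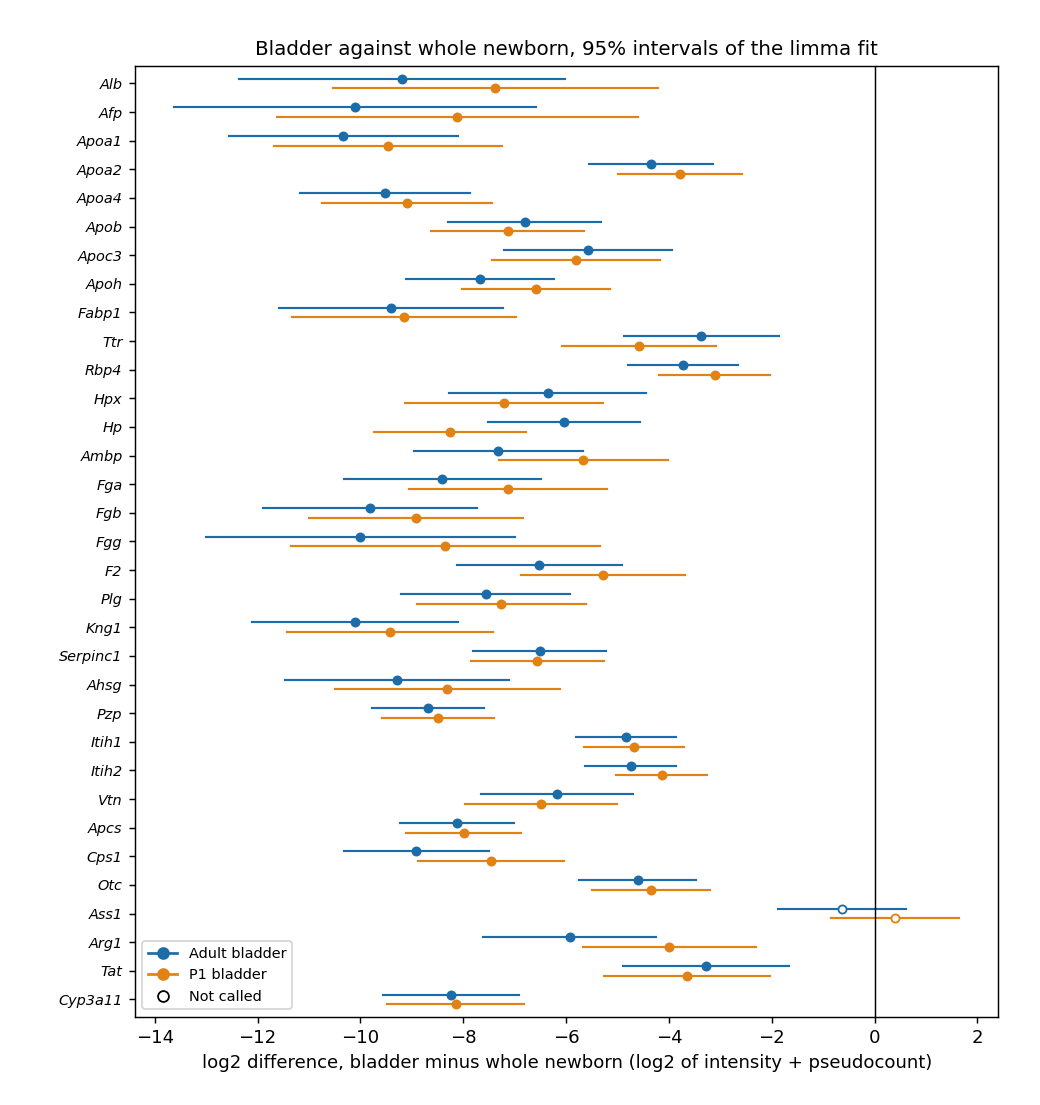
Difference of adult bladder (blue) and P1 bladder (orange) from whole newborn for each gene, in log2 of intensity plus 49, with 95% intervals of the limma fit. Every interval lies below 0 except both of Ass1, which is drawn with open points because it was not called.

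Among the 9 carriers of lipids, all were lower in both bladder stages, with a median difference of -9.19 in adult and -7.38 in P1 bladder. Alb, the main protein of plasma and a carrier of fatty acids, had intensities of 103, 129 and 153 in adult bladders and 303, 120 and 3942 in P1 bladders, against 103031 in whole newborn. All 3 adult bladders lay below their array medians, and P1 replicate 3 lay far above the other 5 bladders. The differences were -9.19 ± 1.39 in adult bladder (SE, n = 3 against 1, limma adjusted p = 0.00536) and -7.38 ± 1.39 in P1 bladder (adjusted p = 0.0184). Without P1 replicate 3 the P1 difference of Alb was -8.72 (adjusted p = 0.001), and without P1 replicate 1 it was -6.97 and no longer called (adjusted p = 0.0525). Afp had 20.2, 35.9 and 40.3 in adult bladders and 211, 8.71 and 2137 in P1 bladders, against 88574 in whole newborn. P1 replicate 3 was again the highest bladder, at 2.41% of the whole newborn value. The Afp difference was -10.10 ± 1.55 in adult bladder (adjusted p = 0.00564) and -8.11 ± 1.55 in P1 bladder (adjusted p = 0.0194), or -9.50 without P1 replicate 3 (adjusted p = 0.0023). Without P1 replicate 1 the P1 call was lost (-7.96, adjusted p = 0.0542). Of its 4 further probe sets, all were called lower in adult bladder and 1 in P1 bladder.

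Apoa1, the main protein of high-density lipoprotein, had 3.37, 12.6 and 6.64 in adult bladders and 6.72, 7.64 and 291 in P1 bladders, against 72576 in whole newborn. Only P1 replicate 3 reached its array median, by a narrow margin. The differences were -10.33 ± 0.98 in adult (adjusted p = 0.000647) and -9.47 ± 0.98 in P1 bladder (adjusted p = 0.00108). Fabp1, the fatty acid-binding protein of liver and intestine, had 27.2, 70.5 and 43.9 in adult bladders and 28.8, 4.75 and 295 in P1 bladders, against 64271 in whole newborn. Apoa4, an apolipoprotein of intestine and newborn liver, had 5.19 to 31.2 in adult bladders and 14.8 to 139 in P1 bladders, against 50333 in whole newborn. In Apoa4 the high P1 bladder was replicate 2, not replicate 3. Apob, the structural protein of low-density lipoprotein, had 9.90 to 113 in adult bladders and 11.4 to 26.3 in P1 bladders, against 9198 in whole newborn. Apoc3, an inhibitor of the clearance of triglyceride-rich particles, had 82.5 to 149 in adult bladders and 17.5 to 143 in P1 bladders, against 7242 in whole newborn. Neither Apob nor Apoc3 reached the median of its array in any bladder. The other Apob probe set was also called lower, but by less (-3.08 in adult and -2.85 in P1 bladder).

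Apoh and Apoa2 were nearer to the array medians. Apoh (beta-2-glycoprotein I, which binds phospholipid) had 251, 135 and 114 in adult bladders and 344, 250 and 684 in P1 bladders, against 42363 in whole newborn. All 3 P1 bladders and adult replicate 1 were above their array medians. The other Apoh probe set, at 406 in whole newborn, was called in neither stage (-1.06 in adult and -0.73 in P1 bladder). Apoa2, the second protein of high-density lipoprotein, had 176, 329 and 217 in adult bladders and 463, 314 and 341 in P1 bladders, against 5690 in whole newborn. All 3 P1 bladders and adult replicate 2 were above their medians. The difference of Apoa2 was -4.34 ± 0.53 in adult bladder (adjusted p = 0.00204) and -3.78 ± 0.53 in P1 bladder (adjusted p = 0.0047), the smallest of the 9 lipid carriers in both stages.

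The 5 measured carriers of other ligands were lower in both stages, with median differences of -6.04 in adult and -5.67 in P1 bladder, and included 2 genes that every bladder expressed. Ttr (transthyretin, which carries thyroxine and binds Rbp4) had intensities of 6110, 8694 and 9143 in adult bladders and 5777, 1447 and 4542 in P1 bladders, against 81865 in whole newborn. Every bladder was well above its array median, every adult bladder was above every P1 bladder, and all were below whole newborn. The mean was 7982 ± 1637 in adult and 3922 ± 2230 in P1 bladders (SD, n = 3 each), or 9.75% and 4.79% of the whole newborn value. The Ttr difference was -3.37 ± 0.66 in adult bladder (limma adjusted p = 0.0179) and -4.58 ± 0.66 in P1 bladder (adjusted p = 0.00539). Without adult replicate 1 the adult difference was -3.19, with an adjusted p of 0.0582. A further 2 of its 3 other probe sets were called lower in both stages, and the remaining probe set, at 7326 in whole newborn, in neither.

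Rbp4, which carries retinol from the liver to tissues, had 2494, 1932 and 3276 in adult bladders and 5761, 2605 and 3832 in P1 bladders, against 33804 in whole newborn. Every bladder was above its array median and the 2 stages overlapped. The differences from whole newborn were -3.73 ± 0.47 in adult bladder (adjusted p = 0.00236) and -3.11 ± 0.47 in P1 bladder (adjusted p = 0.0067). The mean P1 level was 12.03% of whole newborn and the mean adult level 7.59%. Hp (haptoglobin, which binds free haemoglobin) had 576, 267 and 354 in adult bladders and 9.20, 71.9 and 63.0 in P1 bladders, against 28241 in whole newborn. Adult replicates 1 and 3 were above their array medians, and no P1 bladder was. Hpx (hemopexin, which binds haem) had 129, 244 and 176 in adult bladders and 239, 9.32 and 70.7 in P1 bladders, against 18608 in whole newborn. Ambp, the precursor of alpha-1-microglobulin and of the light chain bikunin, had 61.5, 15.9 and 156 in adult bladders and 225, 451 and 285 in P1 bladders, against 18116 in whole newborn. Hpx was below the median on every bladder array, and Ambp was above it only in P1 replicate 2.

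All 7 clotting genes were lower in both stages, with median differences of -8.41 in adult and -7.26 in P1 bladder, and none was above the array median in any adult bladder or in P1 replicates 1 and 2. The 3 fibrinogen chains, which together form the precursor of fibrin, had intensities of at most 124 outside P1 replicate 3. Fgb had 6.87, 5.53 and 4.78 in adult bladders and 8.11, 9.42 and 256 in P1 bladders, against 48894 in whole newborn. Fga had 2.27, 31.8 and 8.01 in adult bladders and 72.0, 26.9 and 315 in P1 bladders, against 20902 in whole newborn. Fgg had 36.8, 14.1 and 10.7 in adult bladders and 124, 5.21 and 1030 in P1 bladders, against 70539 in whole newborn. In all 3 chains P1 replicate 3 was the highest bladder, and for Fga and Fgg it was above its array median. The adult differences were -9.80 ± 0.91 for Fgb (adjusted p = 0.000605), -8.41 ± 0.84 for Fga (adjusted p = 0.000828) and -10.01 ± 1.32 for Fgg (adjusted p = 0.00286).

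Kng1 (kininogen, the source of bradykinin) had 7.42, 10.5 and 6.61 in adult bladders and 7.30, 3.61 and 212 in P1 bladders, against 63053 in whole newborn. It was below the median on every bladder array, replicate 3 included, and its difference in adult bladder was -10.11 ± 0.88 (adjusted p = 0.000439). F2 (prothrombin) had 30.2 to 157 in adult bladders and 155 to 325 in P1 bladders, against 10447 in whole newborn. Plg (plasminogen, the precursor of the fibrin-cleaving protease) had 15.4 to 90.7 in adult bladders and 36.3 to 162 in P1 bladders, against 18234 in whole newborn. F2 passed its array median in P1 replicate 3 alone, and Plg in no bladder. Serpinc1 (antithrombin, which inhibits thrombin) had 72.8, 166 and 140 in adult bladders and 113, 113 and 120 in P1 bladders, against 15470 in whole newborn. Here P1 replicate 3 was level with its stage.

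The 6 protease inhibitors and matrix-binding proteins were lower in both stages. Itih2, which is linked to hyaluronan in the extracellular matrix, had 623, 547 and 655 in adult bladders and 808, 1128 and 922 in P1 bladders, against 17506 in whole newborn. All 6 bladders were above their medians, and each P1 bladder was above each adult bladder. The Itih2 difference was -4.74 ± 0.39 in adult (adjusted p = 0.000359) and -4.14 ± 0.39 in P1 bladder (adjusted p = 0.000754), and its mean was 3.48% and 5.44% of the whole newborn level in adult and P1 bladder. Itih1, another heavy chain of the same inhibitor, had 18.8 to 38.4 in adult bladders and 30.7 to 37.6 in P1 bladders, against 2082 in whole newborn. No bladder was above its median for Itih1, so the 2 heavy chains fell on opposite sides of that limit. The whole newborn value of Itih1 was also lower than that of Itih2. As a share of it, the Itih1 mean was 1.27% in adult and 1.64% in P1 bladder. Vtn (vitronectin, an adhesion protein of plasma and matrix) had 91.2, 114 and 206 in adult bladders and 68.5, 67.4 and 174 in P1 bladders, against 12953 in whole newborn.

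Ahsg (fetuin-A, an inhibitor of calcification) had 18.3, 89.8 and 17.2 in adult bladders and 105, 21.6 and 388 in P1 bladders, against 53196 in whole newborn. P1 replicate 3 was its highest bladder and the only 1 above the median. Pzp, a broad inhibitor of proteases, had 2.98 to 11.7 in adult bladders and 6.84 to 34.1 in P1 bladders, against 23371 in whole newborn. Apcs (serum amyloid P) had 12.9 to 24.4 in adult bladders and 19.9 to 40.3 in P1 bladders, against 19154 in whole newborn. These 2 genes had small spreads on the log2 scale and the lowest adjusted p-values of the set. All their bladder values lay under the 49 added before taking log2, which narrows the spread on that scale. For Pzp the differences were -8.68 ± 0.48 in adult (adjusted p = 0.00015) and -8.49 ± 0.48 in P1 bladder (adjusted p = 0.000185).

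Of the 6 enzymes, 5 were lower in both stages. Cps1, which makes the carbamoyl phosphate that enters the urea cycle, had 50.3, 66.8 and 77.5 in adult bladders and 224, 163 and 469 in P1 bladders, against 54664 in whole newborn. Every P1 bladder exceeded every adult bladder, yet only replicate 3 was above its array median. The differences from whole newborn were -8.92 ± 0.62 in adult (adjusted p = 0.00023) and -7.46 ± 0.62 in P1 bladder (adjusted p = 0.000458). Arg1, the liver arginase that releases urea, had 50.2, 16.0 and 74.6 in adult bladders and 638, 186 and 228 in P1 bladders, against 5608 in whole newborn. Its P1 replicate 1 was the only bladder above its median. Otc (ornithine transcarbamylase) had 26.0 to 50.1 in adult bladders and 26.1 to 70.4 in P1 bladders, against 2002 in whole newborn. Another Otc probe set, at 897 in whole newborn, was called lower in both stages, and another, at 11.1 there, in neither. Cyp3a11, a cytochrome P450 that oxidises steroids and drugs, had 39.2, 103 and 58.6 in adult bladders and 92.9, 72.3 and 51.7 in P1 bladders, against 34093 in whole newborn. Otc and Cyp3a11 were below the median on every bladder array.

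Tat (tyrosine aminotransferase) had 135, 571 and 214 in adult bladders and 166, 204 and 206 in P1 bladders, against 2980 in whole newborn. Adult replicate 2 was high and the only bladder above its median. The Tat difference was -3.29 ± 0.71 in adult (adjusted p = 0.0266) and -3.66 ± 0.71 in P1 bladder (adjusted p = 0.0211). The adult call was lost without adult replicate 1 (adjusted p = 0.0661) or 3 (0.0805), and the P1 call without P1 replicate 1 (0.0538) or 2 (0.0536). Ass1 (argininosuccinate synthase) had 72.6, 2.88 and 53.3 in adult bladders and 121, 139 and 126 in P1 bladders, against 85.5 in whole newborn. Its probe set was below the median on all 7 arrays, whole newborn included, so it gave no liver level to compare with. The difference was -0.64 in adult bladder (95% interval -1.88 to 0.61, adjusted p = 0.546) and 0.40 in P1 bladder (interval -0.85 to 1.64, adjusted p = 0.748).

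Bladder expressed few of the liver genes. Above the array median in all 3 adult bladders were 3 of 33 genes, Ttr, Rbp4 and Itih2, against 57.6% of all genes. In all 3 P1 bladders there were 5 of 33, the same 3 with Apoa2 and Apoh, against 58.8% of all genes. At the 70th percentile of each array in place of the median, Ttr and Rbp4 remained in both stages. When 2 of 3 arrays were enough, Hp was added in the adult and Alb in P1. The other 26 genes did not reach the median in 2 bladders of either stage. Of these, 15 were below the median in all 6 bladders, and 11 were above it in 1 bladder only.

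**Figure D3:**
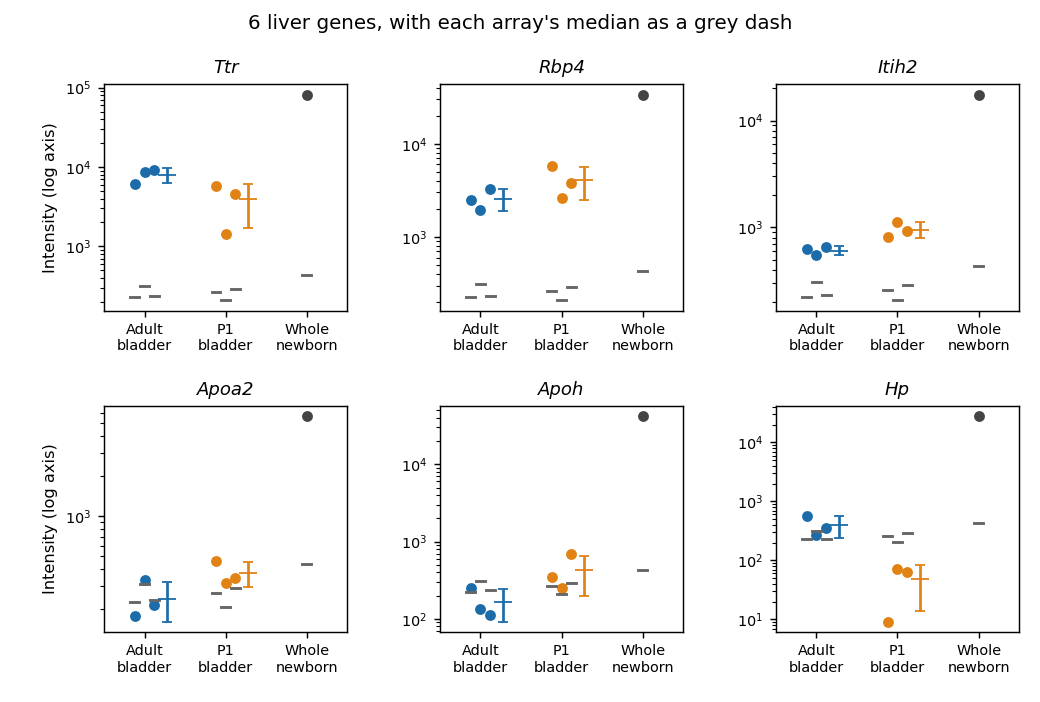
Intensity (y axis, log scale) of 6 genes in adult bladders (blue, left), P1 bladders (orange) and whole newborn (black, right), 1 point per array. Crosses with bars are the mean ± SD of 3 arrays and each grey dash is the median of that array; Ttr, Rbp4 and Itih2 lie above it in all 6 bladders, Apoa2 and Apoh in the 3 P1 bladders, and Hp in adult replicates 1 and 3.

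P1 replicate 3 carried more of the liver genes than any other bladder. In it 14 of 33 genes were above the array median, against 7 and 6 in P1 replicates 1 and 2 and 4 to 5 in adult bladders. It was the highest of the 6 bladders for 16 of the 33 genes. Relative to the mean of the other 2 P1 bladders, its median difference over the set was 0.53 on the log2 scale, against -0.02 over all genes. There 12 of 33 genes were more than 1 log2 unit higher, against 5.41% of all genes, and 8 were more than 2 log2 units higher, against 0.654% of all genes. The largest was Afp at 4.16, followed by Alb at 4.03 and Fgg at 3.48. As a share of whole newborn, the median gene stood at 1.46% in replicate 3, against 0.409% and 0.276% in P1 replicates 1 and 2.

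Of 18 genes above the median in any bladder, 8 were above it in P1 replicate 3 alone: Afp, Apoa1, Fabp1, Fga, Fgg, F2, Ahsg and Cps1. Without that replicate, 10 genes were above the median in some bladder, and the P1 difference from whole newborn was -10.34 for Apoa1, -9.96 for Fabp1 and -9.51 for Fgg, against -9.47, -9.15 and -8.35 with it. By role, the summed intensity of the 9 lipid carriers was 7842 in replicate 3, against 1527 and 888 in P1 replicates 1 and 2, and that of the 7 clotting genes was 2420, against 578 and 350. The 5 ligand carriers summed to 8793 there, against 12010 and 4584, and the 6 enzymes to 1151, against 1306 and 790. The 6 inhibitors and matrix-binding proteins summed to 1589, against 1044 and 1285. Replicate 3 thus had the highest sum of the P1 bladders for the lipid carriers, the clotting genes and the inhibitors, and not for the other roles. Of 26 other plasma proteins of liver, 3 were above the median in replicate 3, against 5 and 6 in P1 replicates 1 and 2, and their summed intensity was 3746, against 3747 and 3099. The 26 liver enzymes and transporters outside the set summed to 6602, against 5961 and 4410. The median log2 difference of replicate 3 from the other 2 P1 bladders was 0.12 for these plasma proteins and 0.28 for these enzymes and transporters. It was 0.40 for 17 liver transcription factors and -0.05 for 12 further clotting factors of liver. Erythroid markers summed to 993, against 1411 and 1020, with 1 of 6 above the median, against 2 in each of the others, and intestine markers to 2086, against 4397 and 3198, with 3 of 9 above the median, against 4 and 3. The median log2 difference was -0.12 for the erythroid and -0.37 for the intestine markers. Mesothelium markers summed to 53970, against 36950 and 47830, with 5 of 8 above the median, against 3 and 5, and their median difference from the other 2 P1 bladders was 0.56 on the log2 scale. Urothelium markers summed to 137100, against 106700 and 116500, with 10 of 10 above the median in each, and their median difference was 0.31. The part of these cells in the values of replicate 3 was not tested.

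**Figure D4:**
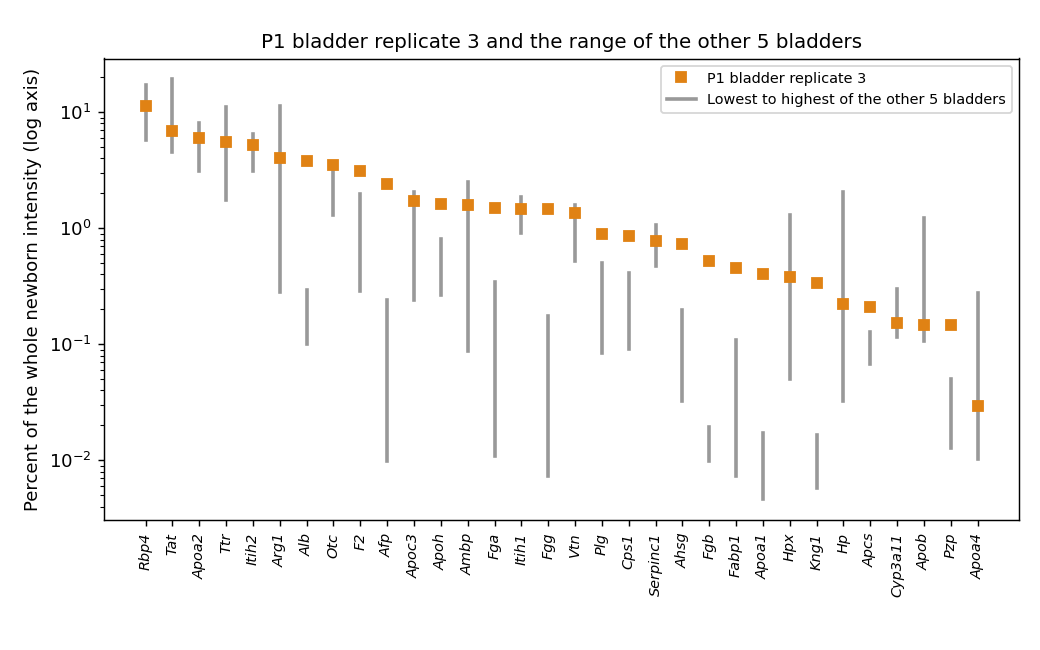
Intensity in P1 replicate 3 as a percent of the whole newborn intensity (y axis, log scale) for 32 genes, Ass1 being left out, beside the lowest to highest value of the other 5 bladders (grey lines). Alb (3.83%), Afp (2.41%), Fgg (1.46%) and Apoa1 (0.401%) lie far above the grey lines, whereas Ttr, Rbp4, Itih2 and Apoa2 lie within them.

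Between the 2 bladder stages, 1 of 33 genes passed the test. Hp was higher in adult than in P1 bladder by 2.22 ± 0.46 (SE, n = 3 each, limma adjusted p = 0.0432), and the 2 stages did not overlap. Over all genes 1.72% were called higher and 2.37% lower in adult bladder, and 0 genes of the set were called lower. At an unadjusted p under 0.05, 2 of 33 were higher in adult bladder (Ttr and Hp), against 9.65% of all genes, and 6 of 33 were lower (Apoh, Ambp, F2, Cps1, Ass1 and Arg1), against 10.5% of all genes. The Hp call was lost in 9 of 16 alternatives (adjusted p = 0.0527 to 0.164 there), among them each of the 6 that left out a bladder, although the difference stayed between 1.38 and 2.80 in all 16. Of 8 adipocyte markers, 6, 4 and 6 were above the array median in adult replicates 1 to 3, against 3 in each P1 bladder, and their summed intensity was 79890, 96420 and 80290 in adult bladders and 58620 to 74720 in P1 bladders. Adult replicate 2 thus had the highest sum of these markers but the fewest above the median among the adult bladders. Of the 8 markers 2 were called higher in adult bladder, Adipoq and Car3, whereas Fabp4 had 24909 to 26314 in adult bladders and 39830 to 50074 in P1 bladders (-0.74, limma adjusted p = 0.0801). Adipoq (adiponectin) had 1167, 466 and 1231 in adult bladders and 51.6, 2.28 and 30.0 in P1 bladders. Male accessory gland markers had 9, 0 and 10 of 12 above the median in adult replicates 1 to 3 and 0 in each P1 bladder. Their sums were 11150, 617 and 11320 in adult replicates 1 to 3 and 406 to 774 in P1 bladders. Of 10 macrophage markers, 10, 10 and 9 were above the median in adult replicates 1 to 3, against 9, 9 and 7 in P1 replicates 1 to 3. Their sums were 24250, 46860 and 25520 in adult replicates 1 to 3 and 12560 to 20210 in P1 bladders. The median adult minus P1 difference of these markers was 0.60, and 1 of them was called higher in adult bladder, Lyz2. The part of these cells in the Hp difference was not tested.

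The stages did not overlap for 2 genes that were higher in adult bladder, Ttr and Hp, against 12.3% of all genes, and for 6 that were lower, Ambp, Fgb, Itih2, Cps1, Ass1 and Arg1, against 14.1% of all genes. None of these except Hp passed the test. Fgb had at most 9.42 in bladders other than P1 replicate 3, and Ass1 was below the median on all 7 arrays. The adult minus P1 difference was -1.94 ± 0.52 for Arg1 (adjusted p = 0.0982), -1.45 ± 0.44 for Cps1 (adjusted p = 0.132), -1.65 ± 0.51 for Ambp (adjusted p = 0.141) and 1.21 ± 0.47 for Ttr (adjusted p = 0.236). When genes were represented by the mean of their probe sets, which lowers the number of tests, Arg1 was called lower in adult bladder (adjusted p = 0.0465). Of 9 intestine markers, 2, 1 and 2 were above the median in adult replicates 1 to 3, against 4, 3 and 3 in P1 replicates 1 to 3, and their sums were 1168 to 1303 in adult and 2086 to 4397 in P1 bladders. Their part in the values of Arg1, Cps1 and Ambp was not tested. The median of the adult minus P1 difference was -0.56 over the set and -0.03 over all genes.

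Most other liver genes were also lower in bladder than in whole newborn. Of 26 further plasma proteins, 19 were lower in adult and 18 in P1 bladder and 0 were higher, among them Apom (-6.42 in adult and -6.98 in P1 bladder) and Apof (-6.24 and -6.51), both apolipoproteins, and Orm1 (-2.55 and -2.56), an acute-phase protein. In this list Apoc1 alone was above the array median in all 6 bladders, and C9, a terminal complement component, was lower in adult than in P1 bladder (-1.95, limma adjusted p = 0.0404). Of 26 liver enzymes and transporters, 22 were lower in adult and 23 in P1 bladder, led by Slc10a1, the bile acid importer (-7.32 in adult and -6.72 in P1 bladder), Gnmt, a glycine methyltransferase (-5.57 and -5.44), and Slc2a2, the liver glucose transporter (-8.06 and -7.53). Hal (histidine ammonia-lyase) was higher in adult than in P1 bladder (2.92, adjusted p = 0.00733).

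Of 12 further clotting factors of liver, 9 were lower in adult and 8 in P1 bladder, for example F12 (-4.65 in adult and -4.60 in P1 bladder), F13b (-6.82 and -6.79) and Proc (-5.09 and -4.60). Pros1 (protein S), which vessels also make, was the 1 of the 12 above the median in all 6 bladders, at 2727 to 4166 in adult and 2488 to 5110 in P1 bladders, against 2771 in whole newborn. Of 10 clotting and fibrinolysis genes made in many tissues, 8 were above the median in all 6 bladders. In adult bladder 1 of these 10 was lower than in whole newborn, Tfpi2 (-2.64, limma adjusted p = 0.0102), and in P1 bladder it differed by -0.67 (adjusted p = 0.473). Tfpi2 was also lower in adult than in P1 bladder (-1.97, limma adjusted p = 0.0193).

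**Figure D5:**
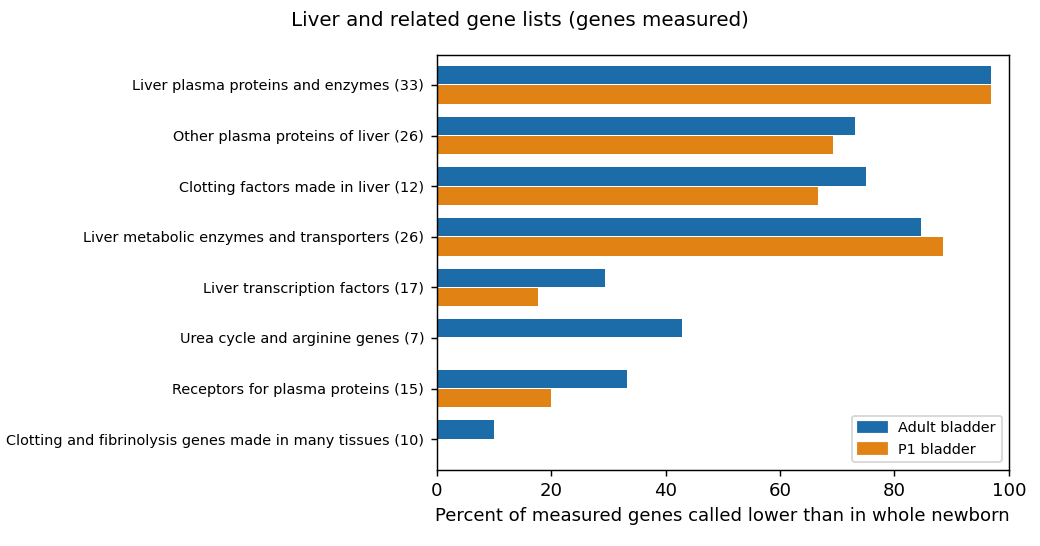
Percent of the measured genes of each list that were called lower than in whole newborn (x axis), in adult bladder (blue) and P1 bladder (orange), with the number of genes measured in brackets. Of the set described here 32 of 33 were called in each stage, and of the clotting and fibrinolysis genes made in many tissues 1 of 10 in adult bladder.

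The regulators and partners of the set were less uniform. Of 17 transcription factors of liver, 5 were lower in adult and 3 in P1 bladder, led by Hnf4a (-4.79 in adult and -5.72 in P1 bladder), Creb3l3 (-5.20 and -5.74) and Foxa3 (-3.77 and -3.08). Foxa1, a forkhead factor also used by urothelium, was higher in both, at 24913 to 36706 in adult and 20651 to 25253 in P1 bladders, against 2502 in whole newborn (3.51 in adult, adjusted p = 0.000489, and 3.13 in P1 bladder, adjusted p = 0.000946). Zbtb20, which silences Afp in postnatal liver, was higher in adult than in P1 bladder (2.56, limma adjusted p = 0.00711). Of the 7 other urea cycle and arginine genes, 6 were above the median in all 6 bladders, and 3 were called lower in adult bladder than in whole newborn: Asl (-1.77), Slc25a15 (-1.87) and Slc25a13 (-2.99). The median difference of the 7 genes from whole newborn was -1.77 in adult and -1.26 in P1 bladder. Arg2, the mitochondrial arginase, was higher in both stages (3.01 in adult, adjusted p = 0.00618, and 2.33 in P1 bladder, adjusted p = 0.0245), opposite in sign to Arg1. Of 15 receptors and exporters for plasma proteins and their cargo, 5 were lower in adult and 3 in P1 bladder, including Tfr2, Asgr1 and Fcgrt, and Abca1, the lipid exporter that loads Apoa1, was higher in adult bladder than in whole newborn (1.54, adjusted p = 0.0194) and than in P1 bladder (2.20, adjusted p = 0.00334).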

How the data were processed

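Total RNA of 6 bladders and 1 whole newborn pool was amplified, biotin-labelled and hybridized to 1 array each, per the labels' protocols. The authors deposited linear intensities. The submitters' processing notes name GCOS, whose version, like the summary method, is not given in the sources used here. By the values themselves, each array's mean without the highest and lowest 2% was 1500.01, so the deposited intensities had been scaled to a common mean. Of 45101 probe sets, 64 controls were left out, and of the other 45037, 34945 name 1 gene, 932 several and 9160 none in the platform annotation.

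Values were analysed as log2(intensity + 49), 49 being the 20th percentile of all values, with no filter, so that every gene of the set was tested. The fold change on this scale understates the change of low values, and their spread, on which the p-values rest, is reduced as well. limma 3.58.1 in R 4.3.3 (lmFit and trended eBayes, two-sided, with Benjamini-Hochberg adjustment over 45037 probe sets, call at an adjusted p under 0.05) was fitted to all 7 arrays in 3 groups. The lone whole newborn array was assumed to vary like the bladders. The fit was tested on simulated data. There a difference of 2 log2 units from whole newborn, planted in 100 probe sets, was called for 18% in adult and 13% in P1 bladder. At 4 log2 units 68% were called in each stage, and at 6 units 94% in adult and 92% in P1 bladder. A gene that was not called may therefore still differ from whole newborn. Differences were planted only where the bladder mean was above the arrays' median, and the whole newborn array was drawn with the bladders' spread. Most genes of the set, Ass1 among them, lay below that limit, so these rates do not describe them. The genes of the set and the other lists were chosen with earlier results of these data known, so no list was given a test of its own. Of the other lists, the text names up to 3 genes of lowest adjusted p and those that go against their list's direction. Genes given beyond that, such as Pros1, Apoc1, Adipoq, Car3, Fabp4 and Lyz2, were chosen after their values were seen. Alternatives were pseudocounts of 17 and 165, median centring, quantile normalization, the mean of a gene's probe sets, 2 filters on low values, eBayes without a trend or robust, the 6 bladders alone, and leaving out each bladder. The number of arrays limits the precision. Promoters came from RefSeq (GRCm38.p6). Figures used matplotlib 3.10.9 and Python 3.11.15.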

Additional observations from a re-analysis of the deposited data

How the results depend on the processing

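Of 66 differences from whole newborn (33 genes in 2 stages), 60 kept their direction and their side of the threshold in every alternative run for them, and so did 928 of the 936 values over all alternatives. The 2 filters among these alternatives counted the whole newborn array, so a gene could pass them through its high value there. For these 2 filters, a call lower than whole newborn is therefore no separate support. The 7 losses of a call all came from leaving out 1 bladder. Without P1 replicate 1 these were Alb (-6.97, adjusted p = 0.0525), Afp (-7.96, 0.0542) and Tat (-3.58, 0.0538), without P1 replicate 2 Tat (-3.69, 0.0536), without adult replicate 1 Ttr (-3.19, 0.0582) and Tat (-2.91, 0.0661), and without adult replicate 3 Tat (-3.16, 0.0805). The adult difference of Ass1 reversed to 0.0302 (adjusted p = 0.984) with median centring. Leaving out each bladder gave 30 to 32 genes lower in adult bladder and 29 to 32 in P1 bladder, with medians of -7.50 to -7.27 in adult and -7.17 to -6.64 in P1 bladder. Centring raised every difference by 0.67 in adult and 0.68 in P1 bladder, so that the set's median became -6.65 in adult and -6.45 in P1 bladder. A pseudocount at the 40th percentile moved it to -6.27 in adult and -6.24 in P1 bladder, that at the 10th percentile to -7.89 in adult bladder, and the mean of a gene's probe sets to -6.52 in adult bladder. Requiring 3 arrays above the median, whole newborn counted, left 7 genes of the set, of which 7 were called in each stage. Alb and Hp were above the median in 2 bladders each and passed this filter only through whole newborn. Of 18 further probe sets of 10 genes, 15 were lower in adult and 12 in P1 bladder and 0 were higher. Because whole newborn values were far above those of bladder, choosing by the highest mean favoured probe sets with a high whole newborn value.

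The 1 call between the stages, Hp, was lost with the 40th percentile pseudocount (0 genes called), median centring (0), quantile normalization (0) and when any bladder was left out (0 to 0 genes). With the mean of a gene's probe sets 2 genes were called, Hp higher and Arg1 lower in adult bladder, where fewer tests were made. The cause of the other changes was not tested. At the 70th percentile of each array 2 genes were expressed in all 3 P1 bladders. No paired analysis was possible because the labels give no replicate numbers shared between groups.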
